A study of Mus musculus with 39 samples.

Results

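The cytosolic ribosomal protein genes encode the protein part of the ribosome that translates nuclear messenger RNAs. Rows of the gene count table were taken as members where the annotation gave a protein-coding symbol of the form Rpl or Rps followed by a number, Rplp0 to Rplp2, or Rpsa. Names marked as pseudogenes were left out. The rule found 83 of 37583 gene rows, of which 33 belong to the small (40S) subunit, 47 to the large (60S) subunit and 3 to the P stalk, and they lie on 19 chromosomes.

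Cortical bone RNA from mouse femurs was sequenced in 39 libraries from 2 experiments. In the first, 8 libraries labelled Sik2/3 DKO (deletion of the salt-inducible kinases Sik2 and Sik3, which act downstream of the parathyroid hormone receptor) stood against 8 of their own WT. In the second, 12 libraries of col1a1-Pth1r (H223R) mice, called C1HR below, stood against 11 of their own WT. C1HR mice carry a form of the parathyroid hormone receptor that signals without hormone, made in cells of the osteoblast lineage because its transgene is driven from a type I collagen promoter. Ages, sexes, strain, and the promoter and induction of the kinase deletion were not given in the sources used here. The design text says that marrow was flushed out for the Sik2/3 mice and not for the C1HR mice, whereas the protocol given for each library describes flushing throughout, so how the second experiment was prepared is uncertain. The same text counts 6 WT where 8 are labelled. Nothing says that the libraries of a group came from separate animals, so the tests measure the spread between these libraries.

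Ribosomal proteins are made in near-equal numbers of copies, because each ribosome holds a single copy of almost every one. Their messenger RNAs begin with a run of pyrimidines, the TOP motif, through which the mTOR pathway controls their translation. They are short, very abundant messages, and processed pseudogenes derived from them are scattered through mammalian genomes. In bone, matrix-secreting osteoblasts and the dividing blood precursors of the marrow both have a high demand for ribosomes.

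The libraries held 11444686 to 24922490 counts assigned to genes. Levels are given below as CPM, each gene's counts relative to a library size that TMM scaled within each experiment, so that levels of the 2 experiments were scaled separately. Reads carried no molecular identifiers and were therefore not independent molecules. In the libraries labelled DKO, Sik2 was not lower but higher than in WT (20.3 to 38.1 CPM against 15.7 to 25.5, log2 fold change 0.64, edgeR adjusted p = 0.00127), and Sik3 differed by -0.21 (edgeR adjusted p = 0.223). The gene total counts all exons and cannot show which exons were deleted, so the label of this group was not borne out by its own targets and the group is called "labelled DKO". Pth1r was 1.89 higher on the log2 scale in C1HR (edgeR adjusted p = 8.68e-15).

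Many cell type markers moved strongly with both comparisons and stand beside every result below. With the label DKO, 11 of 13 erythroid, 11 of 12 granulocyte, 12 of 12 B-lineage, 8 of 8 megakaryocyte and 12 of 12 cell cycle genes rose, and 7 of 7 tested osteoclast genes fell. In C1HR the same lists went the other way, with 13 of 13 erythroid, 12 of 12 granulocyte, 11 of 12 B-lineage, 8 of 8 megakaryocyte and 12 of 12 cell cycle genes lower and 10 of 10 osteoblast genes higher. The summed erythroid level was 262 to 6420 CPM in C1HR against 13322 to 19842 in its WT, and 1626 to 4551 in the libraries labelled DKO against 569 to 2198 in theirs. Other lists moved less evenly. With the label DKO, 4 of 10 osteoblast, 3 of 7 macrophage and 1 of 8 skeletal muscle genes were lower and 4 of 7 osteocyte genes higher. In C1HR 5 of 6 tested osteocyte, 7 of 7 macrophage and 7 of 7 osteoclast genes were higher, and no skeletal muscle gene was called. Of all genes tested, 24.1% were higher and 30.9% lower in the first comparison, and 43.7% and 40.6% in the second. No listed marker was at 0 in every library. In bulk tissue, fewer cells of a type and less RNA per cell cannot be told apart, and the part of the cell mixture in the results on ribosomal proteins was not tested.

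Together the 83 genes made up a small share of the counts. Their share of all gene counts was 0.75% ± 0.12 (SD, n = 8) in the libraries labelled DKO, 0.78% ± 0.23 (n = 8) in their WT, 0.91% ± 0.28 (n = 12) in C1HR and 1.45% ± 0.094 (n = 11) in the C1HR WT. The 163 pseudogene rows left out held at most 0.0178% of a library.

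The summed level was 5749.6 to 9156 CPM (median 6828) in the libraries labelled DKO and 6249.5 to 12264 CPM (median 8314) in their WT. These ranges overlapped widely, and the ratio of the group means was -0.26 on the log2 scale. In C1HR the sum was 7860.3 to 16646 CPM (median 9583), against 11192 to 15005 CPM (median 12480.0) in its WT. Of the 12 C1HR libraries, 10 lay below every WT library and the other two, C1HR 7 and C1HR 11, at 14546 and 16646 CPM, lay among or above them. The ratio of the group means was -0.28, and it was -0.68 with library sizes taken from the gene counts without scaling. A sum over chosen genes was not tested.

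**Figure D1:**
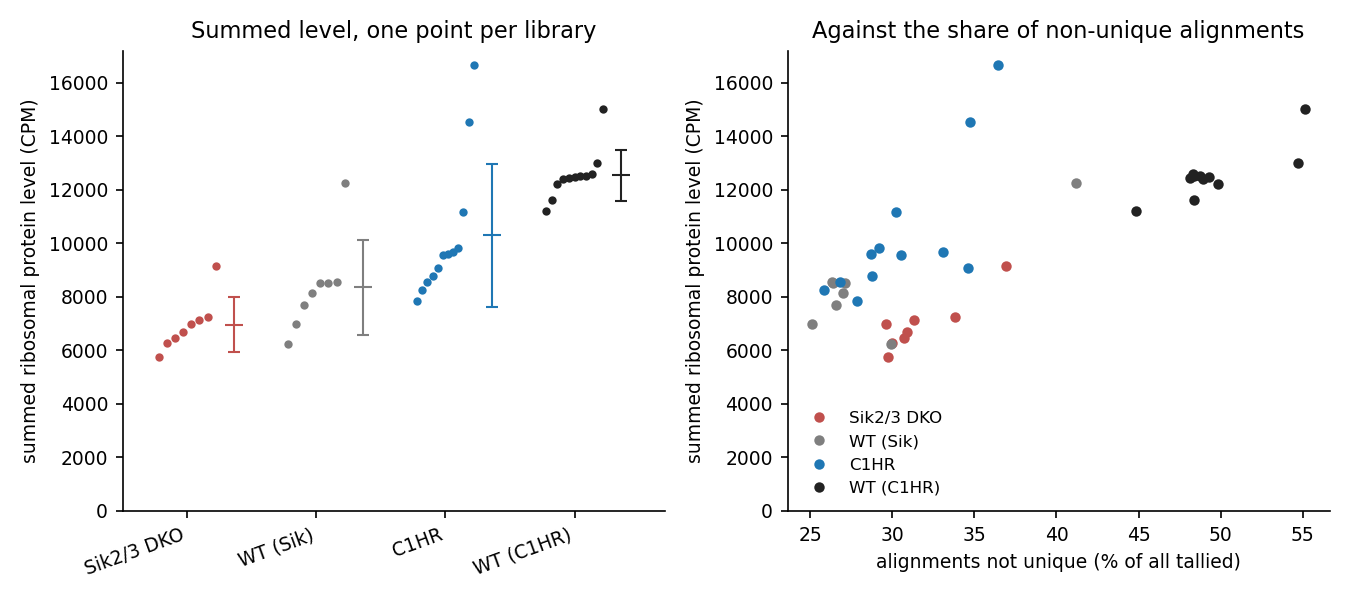
Left, summed level of the 83 ribosomal protein genes in CPM, 1 point per library, with the group mean and SD beside each group; right, the same sums against the share of alignments that were not unique. DKO 1, WT 5 of the Sik2/3 experiment, C1HR 11 and WT 1 of the C1HR experiment are each the highest of their group on both axes.

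The library with the largest share of non-unique alignments was also the highest in most ribosomal protein genes, in all 4 groups. These were DKO 1 (36.9% non-unique), WT 5 of the Sik2/3 experiment (41.2%), C1HR 11 (36.5%) and WT 1 of the C1HR experiment (55.1%). They held the highest value of their group for 66, 61, 61 and 47 of the 83 genes. Non-unique alignments made up 31.6% ± 2.5 (n = 8) in the libraries labelled DKO and 28.7% ± 5.2 (n = 8) in their WT, but 30.6% ± 3.4 (n = 12) in C1HR against 49.5% ± 3.0 (n = 11) in its WT. WT 5 also had the highest sums of its group for the 4 blood cell lists and for cell cycle genes. The part of mapping in the levels was not tested.

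Only reads that mapped to 1 place were counted. Each 50-base window of each member's transcript, the length of a read, was looked up in the mouse genome (NCBIM37, the build called mm9). Of 82413 windows, 42.9% were found a further time elsewhere with no mismatch. The median member had 50.8% of its windows elsewhere, 11 members had over 90%, and Rpl39l and Rpl3l had none. The row named Rpl24 joins 2 genes: the transcript of 677 bases that encodes the ribosomal protein had 85.2% of its windows elsewhere, and one of 4999 bases, which starts beyond its end, had none. RefSeq lists Zbtb11, a zinc finger protein, directly beyond Rpl24, so the counts of that row cannot be assigned to the ribosomal protein alone. Rps27, a zinc-binding protein of the small subunit, had 1 single-copy window and was counted at 0.17 to 1.13 CPM over all libraries. For Rpl7a and Rpl29, the coding window with the most exact matches in the genome (46 and 33, its own included) is shown as an example, because a read lying in it could not be counted.
Rpl7a: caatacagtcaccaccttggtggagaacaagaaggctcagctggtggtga
Rpl29: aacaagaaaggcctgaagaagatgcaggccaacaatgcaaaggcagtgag

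Measured levels spread far beyond the near-equal copy numbers of the proteins. Per kilobase of the longest transcript, and without the joined Rpl24 row, the mean level in the C1HR WT ran from 0 for Rpl10l, 1.57 CPM for Rpl19 and 1.64 CPM for Rps27 to 1209 CPM for Rpl8 and 1415 CPM for Rplp1. Rpl4 alone took 9.73% to 11.7% of the members' counts, by group, and the 10 most counted members 60.7% to 64.8%. The 42 other members with over 50% of their windows elsewhere had a median of 18.9 CPM per kilobase in the C1HR WT, and those with fewer 54.4. In the Sik2/3 WT the medians were 28.1 and 38.1. Across genes the rank correlation of level with that share was -0.36 in the C1HR WT (n = 81 genes) and -0.31 in the Sik2/3 WT (n = 82 genes). Genes are not independent replicates, and all points of a group share its libraries. The SD of the log2 level across members was 2.77 per kilobase and 2.54 per single-copy window in the C1HR WT. In the Sik2/3 WT it was 2.69 and 2.57. Both measures, and the share of windows found elsewhere, rest on the longest annotated transcript, of 5130 bases for Rps15a and 3706 for Rps20. Which transcripts were made was not measured, so these values cannot show how much mapping adds to the spread.

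**Figure D2:**
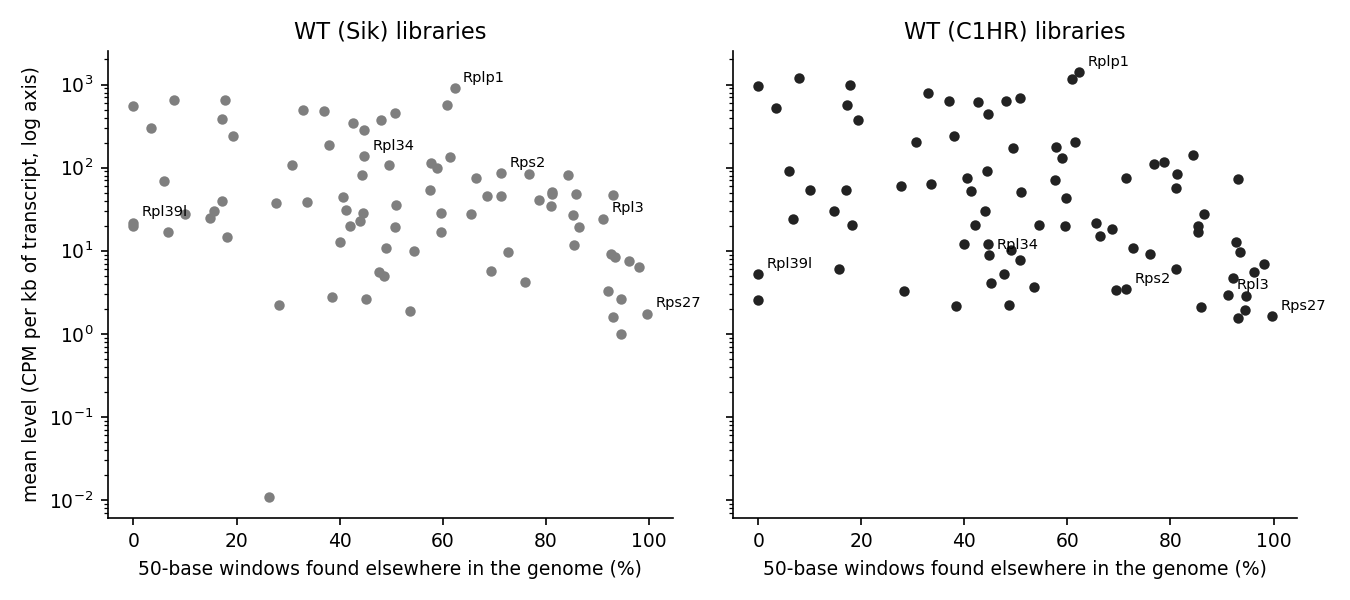
Mean level per kilobase of the longest transcript (CPM, log axis) of each ribosomal protein gene against the share of its 50-base windows found elsewhere in the genome, in the WT libraries of the Sik2/3 experiment (left) and of the C1HR experiment (right, without Rpl10l, which is at 0), with the joined Rpl24 row left out of both. Levels spread widely at every share, and Rps2, Rpl3 and Rpl34 sit far lower in the right panel.

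Between the libraries labelled DKO and their WT, most members lay slightly lower and few passed the test. Of 82 members tested with edgeR, 13 (15.9%) were lower and none higher, where 30.9% of all genes tested were lower and 24.1% higher. The share of lower members was thus below that of genes at large. The median log2 fold change was -0.24 over the members, of which 73 were below 0, and -0.09 over all genes tested. With unscaled gene counts 48 members were below 0, and with all alignments as the library size 59. Of the 13 called members 2 kept their call with unscaled gene counts and 5 with all alignments. Relative to all genes the members' median lay between -0.15 and -0.14 under all 5 ways of scaling the libraries, while their own median ran from -0.24 to -0.03. Scaling shifts all genes by nearly the same amount, so it could hardly change the distance between the members and all genes. That distance from all genes was smaller, at -0.09, both without WT 5 and 6 and without DKO 1 and WT 5. No member separated the groups without overlap, against 4.08% of all genes with every library labelled DKO below every WT and 5.96% above. Of the large subunit 8 of 46 tested members were lower, of the small subunit 3 of 33, and of the P stalk 2 of 3. The count grew when 2 libraries were left out. Without DKO 1 and WT 5, those with the most non-unique alignments, 23 members were lower and 1 higher, and 12 of the 13 calls were kept.

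The P stalk, formed by Rplp0 with Rplp1 and Rplp2, recruits the translation factors that hydrolyse GTP. Rplp0 was 419 to 623 CPM (median 492.6) in the libraries labelled DKO and 450 to 675 CPM (median 624.9) in WT, and fell by 0.28 ± 0.10 (SE) on the log2 scale (edgeR adjusted p = 0.0204). Of the 8 libraries labelled DKO 7 lay below the WT mean, the groups overlapped, and the WT low was WT 6. That fall was not called with size factors (edgeR adjusted p = 0.0556), unscaled gene counts (0.6) or all alignments as the library size (0.225). Rplp1 was 264 to 454 CPM (median 325) against 300 to 606 CPM (median 458) and fell by 0.46 ± 0.14 (edgeR adjusted p = 0.0113), a call lost with unscaled gene counts (edgeR adjusted p = 0.175). Rplp2 was 76.4 to 163 CPM (median 96.9) against 75.8 to 128 (median 108), a difference of -0.01 ± 0.15 that was not called.

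Among other subunit proteins, the falls in the libraries labelled DKO were mostly under 1.5-fold. Rps25, which in yeast and human cells is needed for initiation on several viral internal entry sites, was 39.1 to 60.3 CPM (median 44.6) against 49.6 to 115 CPM (median 65.7). It fell by 0.54 ± 0.15 (edgeR adjusted p = 0.00588), and all 8 libraries labelled DKO lay below the WT mean. Rpl13a, a large-subunit protein that human monocytes release from the ribosome to silence inflammatory messages, was 322 to 563 CPM (median 400) against 347 to 892 CPM (median 559). It fell by 0.48 ± 0.16 (edgeR adjusted p = 0.0159) with the highest values in DKO 1 and WT 5, and was not called with unscaled gene counts (edgeR adjusted p = 0.198) or all alignments as the library size (0.0574). Rpl38, which is required for normal patterning of the axial skeleton in mice, fell by 0.42 ± 0.17 (edgeR adjusted p = 0.0485), a call kept under only 1 of the 9 alternatives, that without DKO 1 and WT 5. Rpl6, Rpl7a, Rpl15, Rpl23 and Rps16 fell by 0.19 to 0.38.

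Several well-known members did not pass the test in the libraries labelled DKO. Rps19 and Rps14, whose human counterparts are lost in inherited and acquired failure of red cell production, differed by -0.24 ± 0.14 and -0.39 ± 0.19. Rpl5 and Rpl11, which bind Mdm2 when ribosome assembly fails, differed by -0.11 ± 0.10 and -0.10 ± 0.13. Rps6, the target of the S6 kinases, differed by -0.09 ± 0.14. The Rpl24 row, which joins the gene changed in Belly spot and tail mice with Zbtb11, had the highest fold change of the family at 0.25 ± 0.10 (edgeR adjusted p = 0.0552), with 25.99 to 34.4 CPM (median 30.3) against 20.5 to 31.6 CPM (median 25.7). All 8 libraries labelled DKO lay above the WT mean, and the row was called higher under 7 of the 9 alternatives. Without WT 5 and 6 its difference was 0.36 (edgeR adjusted p = 0.00625). It also shares exon with Pcnp, and its annotated span holds 16 exon blocks.

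In C1HR, falls were spread over both subunits and the P stalk, and few members rose. Of 81 members tested with edgeR, 41 (50.6%) were lower and 5 (6.17%) higher, where 40.6% of all genes tested were lower and 43.7% higher. The median log2 fold change was -0.24 over the members and 0.05 over all genes. The members' median lay between -0.31 and -0.29 relative to all genes under the 5 ways of scaling, a distance that scaling could hardly change. Unscaled gene counts moved the median of all genes to -0.35 and gave 66 lower and 2 higher members. Lower members numbered 23 of 46 in the large subunit, 15 of 32 in the small subunit and 3 of 3 in the P stalk. Only 3 members changed by over 2-fold. In 6 members every C1HR library lay below every WT library (24.9% of all genes did so) and in 2 every library lay above (27.8%).

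Members whose C1HR libraries all lay below WT included Rpl4, Rpl8, Rplp0, Rps4x and Rps29. Rps29, a zinc-binding protein of the small subunit, had the largest fall of the family, at 0.98 to 2.08 CPM (median 1.48) against 2.35 to 4.196 CPM (median 3.71). It fell by 1.28 ± 0.12 on the log2 scale (edgeR adjusted p = 5e-10), on 241 and 584 counts in all. Rpl4, which lines the peptide exit tunnel and is the most counted member, was 891 to 1062 CPM (median 925) against 1273 to 1625 CPM (median 1409). It fell by 0.55 ± 0.05 (edgeR adjusted p = 7.14e-11). Rpl8, which lies at the peptidyl transferase centre, was 599 to 790 CPM (median 675) against 917 to 1203 CPM (median 1046). It fell by 0.60 ± 0.05 (edgeR adjusted p = 1.02e-10), and only 7.87% of its windows occur elsewhere in the genome. Rps4x fell by 0.55 ± 0.06 (edgeR adjusted p = 3.46e-09). The share of windows found elsewhere was higher for the others, at 17.8% for Rpl4, 50.7% for Rplp0, 76.0% for Rps29 and 84.3% for Rps4x.

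The P stalk was lower throughout in C1HR. Rplp0 was 644 to 853 CPM (median 742) against 864 to 1085 CPM (median 919) and fell by 0.31 ± 0.05 (edgeR adjusted p = 2.14e-06). Rplp2 was 117 to 179 CPM (median 143) against 170 to 237 CPM (median 197.5) and fell by 0.47 ± 0.07 (edgeR adjusted p = 5.47e-07). Rplp1 fell by 0.24 ± 0.08 (edgeR adjusted p = 0.00574), with 10 of 12 libraries below the WT mean, a call that upper-quartile scaling did not keep. Rplp0, Rplp1, Rpl6 and Rps16 were the 4 members lower in both comparisons.

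Further members of both subunits fell in C1HR. Rpsa, also known as the laminin receptor, was 2.80 to 5.75 CPM (median 3.73) against 5.09 to 8.53 CPM (median 6.89) and fell by 0.85 ± 0.10 (edgeR adjusted p = 2.57e-08). The row that joins Rpl24 and Zbtb11 was 14.7 to 29.04 CPM (median 18.2) against 27.2 to 37.04 CPM (median 31.2) and fell by 0.70 ± 0.09 (edgeR adjusted p = 1.72e-07). Of tested members with at most 50% of their windows elsewhere 16 of 39 (41.0%) were lower, near the 40.6% of all genes, and of those with more 25 of 42 (59.5%). Of the 55 tested members whose exons overlap no other gene 30 were lower.

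Rps26, which contacts messenger RNA upstream of the start codon, fell by 0.62 ± 0.09 (edgeR adjusted p = 4.85e-07). Rps27a, made as a fusion with ubiquitin, fell by 0.69 ± 0.14 (edgeR adjusted p = 8.35e-05), and Rps6 by 0.57 ± 0.13 (edgeR adjusted p = 0.000311). Rpl29, Rpl23a and Rpl3 fell by 0.88, 0.95 and 0.76 from WT means of only 1.56, 1.08 and 3.98 CPM. Apart from 2 paralogs described below, Rpl10a rose by 0.56 ± 0.09 (edgeR adjusted p = 5.43e-06, 12 of 12 libraries above the WT mean). Rpl27a rose by 0.36 ± 0.08 (edgeR adjusted p = 0.000255) and Rps18 by 0.31 ± 0.13 (edgeR adjusted p = 0.0321). With unscaled gene counts Rpl27a and Rps18 turned to -0.03 and -0.09 and neither was called. Rps18 was also not called without C1HR 8 and 9 (0.22) or without C1HR 11 and WT 1 (0.24). Rps19, Rps14, Rpl5 and Rpl11 were not called, at -0.14, 0.11, 0.09 and -0.12, and Rpl5 was -0.31 with unscaled gene counts.

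**Figure D3:**
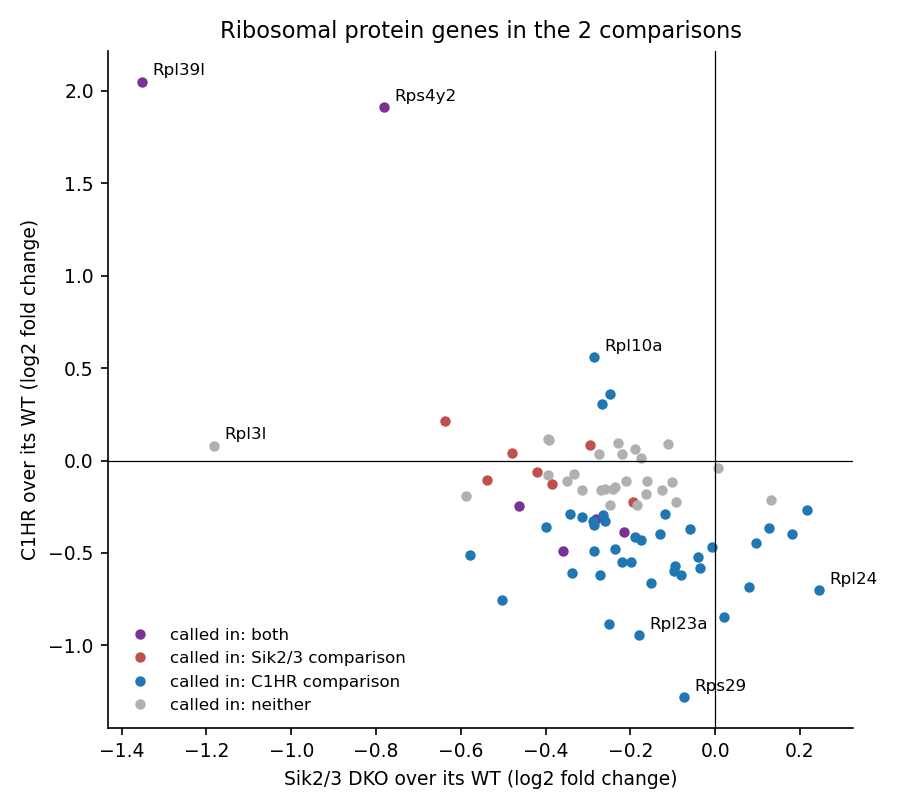
Log2 fold change of each ribosomal protein gene tested in both experiments, with the libraries labelled Sik2/3 DKO against their WT on the x axis and C1HR against its WT on the y axis; colours show where edgeR's adjusted p was under 0.05. Most genes lie between -0.5 and 0 on both axes, and Rpl39l and Rps4y2 stand apart at the upper left, lower in the first comparison and higher in the second.

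Within C1HR the members did not keep their proportions. Of the 79 members at a group mean of 1 CPM or more, 51 had their highest 2 values in C1HR 7 and C1HR 11. C1HR 11 exceeded the group median more than 2-fold for 25 members and C1HR 7 for 16. Rps3, a small-subunit protein at the messenger RNA entry channel, was 1716 CPM in C1HR 7, 1132 in C1HR 10 and 2128 in C1HR 11, and 561 to 713 in the other 9. Rpl13a and Rps14 followed, at 1725 and 977 CPM in C1HR 7, 1055 and 564 in C1HR 10, and 2125 and 1072 in C1HR 11. Rps4x had its lowest value of the group, 77.9 CPM, in C1HR 10, and Rpl4 in C1HR 11 was 1.01 times the group median. The SD of Rps3 in C1HR was 509 CPM, and its difference from WT of -0.16 ± 0.21 was not called. These 3 libraries did not have the highest blood markers of the group, which were in C1HR 8 and 9, and C1HR 11 had the lowest summed osteoblast level and the highest osteoclast level of the group.

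The 2 genes with opposite calls in the 2 experiments were both copies of another member. Rpl39l encodes a close copy of Rpl39, a very small protein of the peptide exit tunnel, and is known for its expression in testis. Its gene lies at chr16:10170319-10175004 and Rpl39 at chrX:34622515-34625397 (both NCBIM37). Rps4y2 lies at chr6:148303178-148304120, in 1 exon block, and resembles the X-linked Rps4x at chrX:99380280-99384733. The RefSeq annotation of GRCm38.p6 lists Rps4y2 as a synonym of Rps4l, a transcribed pseudogene. The coding sequences of Rpl39 and Rpl39l were 85.3% identical (23 differences over 156 bases) and those of Rps4x and Rps4y2 79.8%. Their first 60 coding bases are shown to let the copies be compared, with the bases that differ within each pair in capitals.
Rpl39: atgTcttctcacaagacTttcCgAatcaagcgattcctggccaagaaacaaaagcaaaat
Rpl39l: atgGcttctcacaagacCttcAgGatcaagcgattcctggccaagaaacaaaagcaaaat
Rps4x: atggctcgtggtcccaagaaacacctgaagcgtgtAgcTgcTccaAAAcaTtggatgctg
Rps4y2: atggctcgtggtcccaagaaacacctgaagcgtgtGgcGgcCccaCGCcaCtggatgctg

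Rpl39l was 8.94 to 38.6 CPM (median 13.7) in C1HR and 3.21 to 5.36 CPM (median 4.09) in its WT. Every C1HR library lay above every WT library, with C1HR 7 and 11 at 38.1 and 38.6 CPM. It rose by 2.05 ± 0.24 on the log2 scale, 4.14-fold (edgeR adjusted p = 2.02e-08). In the libraries labelled DKO it was 4.85 to 11.7 CPM (median 6.60) against 8.27 to 21.97 CPM (median 19.05) in WT. These groups overlapped only through WT 6, the lowest WT, and Rpl39l fell by 1.35 ± 0.20 (edgeR adjusted p = 8.53e-05). None of the windows of Rpl39l is found elsewhere in the genome. Rpl39 itself differed by -0.19 ± 0.16 in C1HR (edgeR adjusted p = 0.267) and by -0.59 ± 0.25 in the libraries labelled DKO (edgeR adjusted p = 0.0526), and without DKO 1 and WT 5 it was called lower there at -0.36.

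Rps4y2 was 13.9 to 28.3 CPM (median 20.1) in C1HR and 4.03 to 7.88 CPM (median 5.33) in its WT, again with no overlap. It rose by 1.91 ± 0.13, 3.76-fold (edgeR adjusted p = 8.92e-13), while Rps4x fell from 137 ± 8.67 CPM to 93.8 ± 10.7 CPM. In the libraries labelled DKO it was 12.6 to 20.7 CPM (median 16.6) against 16.9 to 38.4 CPM (median 29.3) and fell by 0.78 ± 0.16 (edgeR adjusted p = 0.000632). Rps4x differed by -0.22 ± 0.13 there. Osteoclast markers moved in the same directions, with 7 of 7 lower in the libraries labelled DKO and 7 of 7 higher in C1HR. Macrophage markers were lower in 3 of 7 and higher in 7 of 7, in that order. Osteoblast genes were lower in 4 of 10 and higher in 10 of 10. Their sums overlapped in the first comparison, at 73361 to 202670 CPM in the libraries labelled DKO against 88582 to 264870 CPM. Of all genes tested, 30.9% were lower in the first comparison and 43.7% higher in C1HR. The share of all genes with both calls was not counted. Osteocyte markers did not follow both genes: 4 of 7 were higher and none lower in the libraries labelled DKO, and 5 of 6 tested were higher in C1HR. The summed osteoblast level was 256020 to 446020 CPM in C1HR against 54903 to 99499 CPM in its WT, and the part of these cells was not tested.

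**Figure D4:**
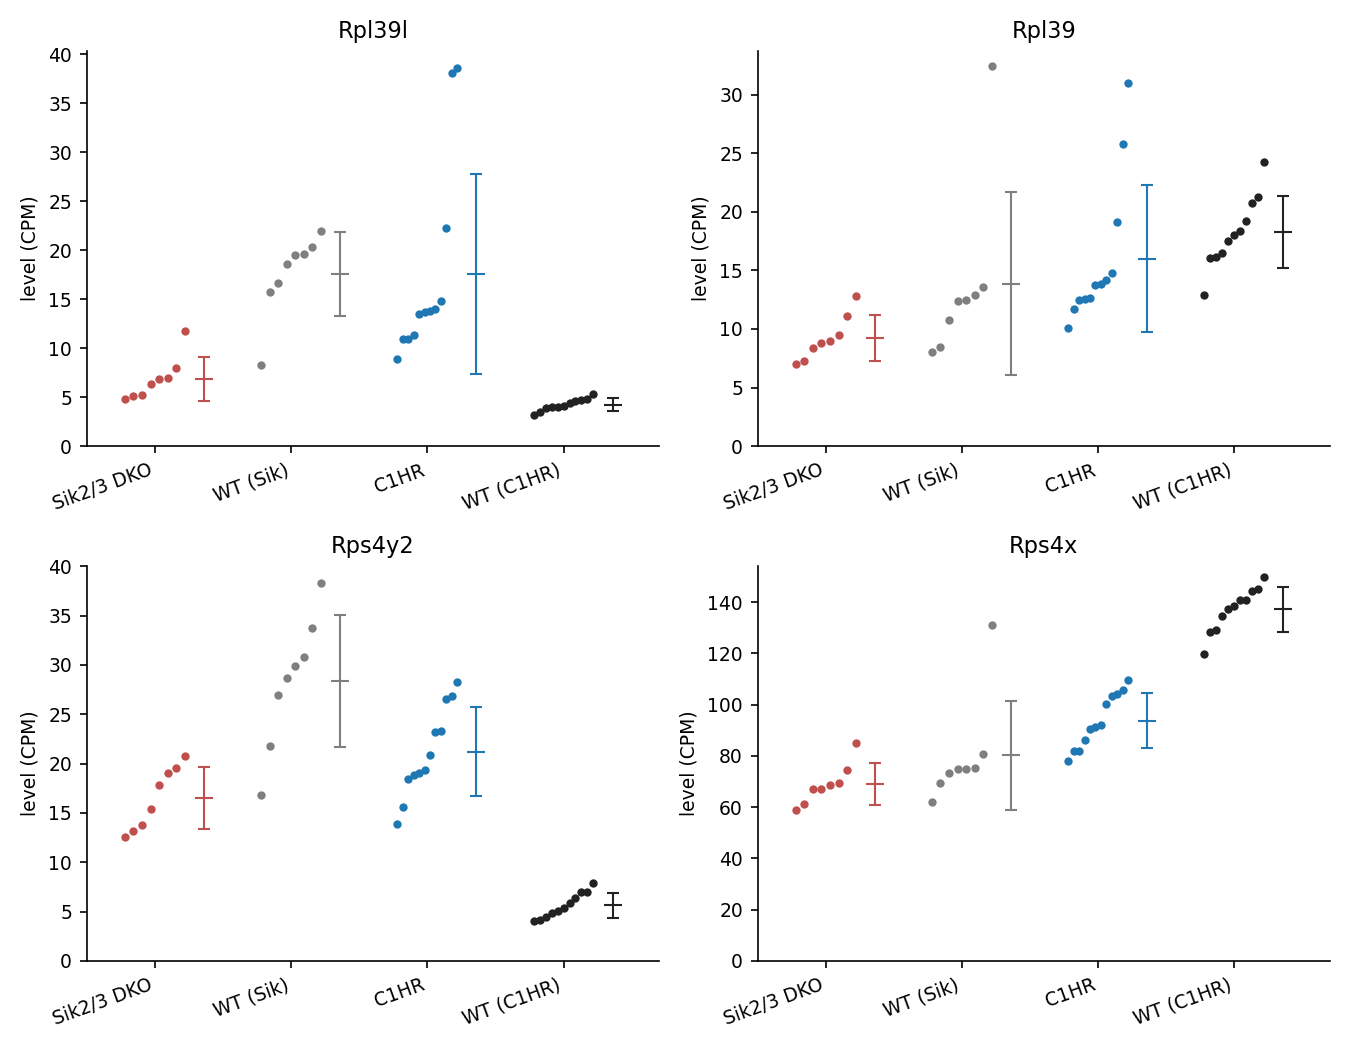
Levels of Rpl39l and Rps4y2 (left panels) and of the genes they resemble, Rpl39 and Rps4x (right panels), in CPM, 1 point per library, with the group mean and SD beside each group. Rpl39l and Rps4y2 are lowest in the C1HR WT libraries, at 3.21 to 7.88 CPM, where Rps4x is highest.

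The other paralogs behaved separately. Rpl22l1, the copy of Rpl22, was 7.37 to 10.7 CPM (median 8.13) against 7.42 to 24.6 CPM (median 13.1) and fell by 0.64 ± 0.19 in the libraries labelled DKO (edgeR adjusted p = 0.0109, and 0.0983 with unscaled gene counts), while in C1HR it differed by 0.22 ± 0.20. Rpl22 was not called in either, at -0.25 and -0.24, and in C1HR it was called lower without C1HR 8 and 9 (-0.33) and without C1HR 11 and WT 1 (-0.32). Rpl7l1, a relative of Rpl7 that works in ribosome assembly, was not called, at -0.12 and -0.16, and without those libraries it was called lower in C1HR (-0.26 and -0.20). Rps27l, the p53-responsive copy of Rps27, was not called at -0.35 and -0.11, and ran from 17.6 to 70.1 CPM in C1HR with the highest value in C1HR 11.

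Rpl3l, the form of Rpl3 made in skeletal muscle and heart, was 1.74 to 32.3 CPM in the libraries labelled DKO and 5.41 to 104 CPM in their WT. The highest value was in WT 6, which also had the highest skeletal muscle sum of its group (29362 CPM against a group median of 3395). Among those labelled DKO, both were highest in DKO 6. Rpl3l differed by -1.18 ± 0.69 (edgeR adjusted p = 0.154) and by 0.08 ± 0.47 in C1HR. Without WT 5 and 6 the first difference turned to 0.18 (edgeR adjusted p = 0.794). Rpl10l, the testis copy of Rpl10, had 4 counts in all 39 libraries and was not tested.

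The difference between the 2 effects was tested in 1 fit of all 39 libraries, C1HR minus its WT less labelled DKO minus its WT. It was called with edgeR in 24 of 82 members, where 80.2% of all genes tested were called. It was higher in 6 (7.32%) and lower in 18 (21.95%), against 42.0% and 38.1% of all genes. It was 3.34 ± 0.34 for Rpl39l (edgeR adjusted p = 1.56e-11) and 2.63 ± 0.21 for Rps4y2 (edgeR adjusted p = 4.6e-14), and 0.78 ± 0.16 for Rpl10a. On the other side it was -1.27 ± 0.22 for Rps29 (edgeR adjusted p = 1.71e-06), -1.01 ± 0.14 for the joined Rpl24 row (edgeR adjusted p = 3.43e-08) and -0.57 ± 0.11 for Rpl8 (edgeR adjusted p = 9.03e-06). Tissue preparation may differ between the experiments, and the genotype effect and the experiment cannot be told apart in this difference.

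A few members differed far more between the 2 experiments than between genotypes. Scaled over all 39 libraries together, 6 of the 80 members at 1 CPM or more were over 4-fold higher in the Sik2/3 WT than in the C1HR WT, or 7.50% where 8.92% of all genes were. These were Rps2 (19.1-fold), Rpl29 (17.7-fold), Rpl34 (12.0-fold), Rps18 (6.53-fold), Rpl3 (6.49-fold) and Rpl3l (6.01-fold). None was over 4-fold lower (1 was without WT 3, 4 or 5 of the Sik2/3 experiment), against 7.46% of all genes, and the median ratio of the members was 0.555 where that of all genes was 1.03. Rps2 was 60.1 to 123 CPM in the Sik2/3 WT and 2.86 to 5.52 CPM in the C1HR WT on that scale. Rpl3l is the muscle form described above, and without WT 6 of the Sik2/3 experiment its ratio was 3.51. In the other 5, the share of windows found elsewhere was 44.7% to 91.2%. Experiment and group cannot be told apart here, so this was not tested.

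Rps3a, a small-subunit protein that binds initiation factors, split the libraries of 1 group. It was 1.23 and 1.19 CPM in WT 7 and WT 8 of the Sik2/3 experiment and 27.5 to 80.7 CPM in the other six. In the libraries labelled DKO it was 24.5 to 94.9 CPM, in C1HR 70.3 to 140 CPM and in the C1HR WT 97.0 to 130 CPM. The groups labelled DKO and WT differed by 0.13 ± 0.63 (edgeR adjusted p = 0.876), and 78.8% of its windows occur elsewhere. Rps2 ran from 29.9 to 126 CPM in the libraries labelled DKO, highest in DKO 1 and DKO 2, which were also highest in Rps3a. The share of non-unique alignments was 25.1% in WT 7, the lowest of its group, and 27% in WT 8, within the range of the other six. The part of mapping or of genetic background in these splits was not tested.

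Sequence around the annotated start sites was searched for a short run of pyrimidines. RefSeq promoter sequence (GRCm38.p6) was found for 61 of the 83 members. The letters CTTTC, read on the strand of the gene from 20 bases before the start to 30 after, were present in 22 of the 61 (36.1%) and in 2069 of 27025 genes (7.66%). A match is a description of these letters, not a site. A match before the start lies outside the annotated message, so the shares are not counts of TOP motifs. In the genes shown the match lies at -17 (Rpl4), -8 (Rps27) and 10 (Rpl13a) bases relative to the annotated start. A window of 30 bases is shown, with CTTTC in capitals, for the most counted member, for the member with the fewest countable windows and for Rpl13a, which was called lower in the libraries labelled DKO and not in C1HR.
Rpl4 (chr9:64173367-64173396, plus strand): agtCTTTCcttttcctgtgggagcagccgg
Rps27 (chr3:90213639-90213668, minus strand): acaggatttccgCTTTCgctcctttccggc
Rpl13a (chr7:45128721-45128750, minus strand): gacaagacctcctcCTTTCccaggcggctg

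Genes that act in making and running the ribosome also fell in C1HR. Of 45 ribosome biogenesis genes, 38 were lower and none higher in C1HR with edgeR, with a median log2 fold change of -0.63, where 40.6% of all genes tested were lower and 43.7% higher. Dkc1, the pseudouridine synthase of ribosomal RNA, was 24.4 to 46.8 CPM against 83.3 to 113 CPM and fell by 1.54 ± 0.09 (edgeR adjusted p = 1.56e-14). Nop58, a core protein of the box C/D particles that guide methylation of ribosomal RNA, was 33.1 to 56.1 CPM against 87.1 to 112 CPM and fell by 1.27 ± 0.08 (edgeR adjusted p = 1.31e-13). The groups did not overlap for either. The Sik2/3 comparison had 9 of the 45 higher and 4 lower (median 0.02), against 24.1% and 30.9% of all genes, with Heatr1, needed for ribosomal RNA transcription, higher by 0.49 ± 0.09 (edgeR adjusted p = 0.000247).

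Transcription of ribosomal RNA depends on RNA polymerase I. For polymerase I and its factors 10 of 14 were lower in C1HR (median -0.35, against 0.05 over all genes), among them Ubtf, the activator of ribosomal DNA, by 0.51 ± 0.05 (edgeR adjusted p = 1.59e-09). Initiation factors were lower in 24 of 28 (median -0.48), with Eif3l falling by 0.78 ± 0.06 and Eif5a by 0.88 ± 0.06, and elongation factors in 5 of 7 (median -0.38). Of all genes tested in C1HR, 40.6% were lower and 43.7% higher. The counts in the Sik2/3 comparison were 1 higher and 2 lower of 14, 2 higher and 3 lower of 28, and 1 higher and 2 lower of 7. In that comparison 24.1% of all genes tested were higher and 30.9% lower. There Eef1a1 and Eef2, which carry the charged transfer RNA to the ribosome and move the ribosome along, fell by 0.35 ± 0.10 and 0.36 ± 0.10.

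The mitochondrial ribosome, a separate particle that translates the messages of the organelle, was measured beside the cytosolic one. Of 75 genes tested, 31 fell and 1 rose in the libraries labelled DKO (median -0.22), and 48 fell and 4 rose in C1HR (median -0.38). Of all genes tested, 30.9% fell and 24.1% rose in the first comparison, and 40.6% fell and 43.7% rose in the second. Mrpl17 and Mrps18a fell by 0.63 and 0.61 in the libraries labelled DKO, and Mrpl51 fell by 0.83 in C1HR. Against its own WT, Mrpl17 rose by 0.53 in C1HR (edgeR adjusted p = 0.00254).

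**Figure D5:**
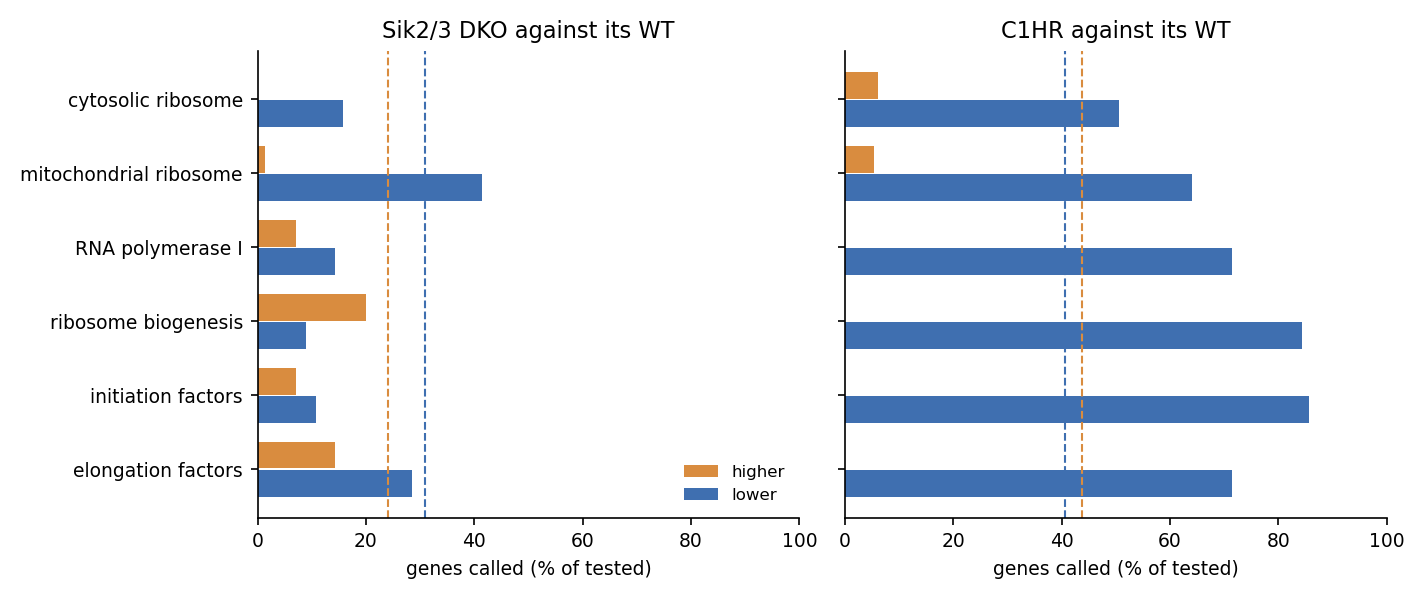
Share of tested genes of each list called higher or lower by edgeR (adjusted p under 0.05) in the libraries labelled Sik2/3 DKO (left) and in C1HR (right), each against its own WT; dashed lines give the share of all genes tested that was higher (orange) or lower (blue). In C1HR 84.3% of all genes were called in one direction or the other, and the shares of lower genes lie above the blue line in all 6 lists.

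Other genes linked to the ribosome were mixed. Gnb2l1, the scaffold protein also known as Rack1 that sits on the small subunit, fell in both, by 0.35 ± 0.11 and 0.38 ± 0.08. Fau and Rpl36al, which also encode ribosomal proteins but have names outside the rule, fell in C1HR. Of 17 further TOP messages and their regulators, 3 rose and 5 fell in the Sik2/3 comparison, and 4 rose and 10 fell in C1HR. Among all genes 55.0% were called in the first and 84.3% in the second. Tpt1, a classical TOP message, fell by 0.67 ± 0.10 in the libraries labelled DKO (edgeR adjusted p = 0.000101) and differed by -0.03 ± 0.09 in C1HR. Pabpc1, the poly(A)-binding protein, rose by 0.48 ± 0.11 in the first and fell by 1.42 ± 0.13 in the second (edgeR adjusted p = 0.00177 and 1.63e-10).

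Of 8 genes of the MYC network, which drives ribosome production, the Sik2/3 comparison gave 3 higher and 1 lower, and the C1HR comparison 4 higher and 3 lower. These counts lie near the 55.0% and 84.3% of all genes that were called. Myc itself differed by 0.03 ± 0.13 and fell by 0.35 ± 0.07, while its antagonists Mxd1 and Mxd4 went opposite ways: Mxd1 rose by 1.46 and fell by 2.22, and Mxd4 fell by 0.65 and rose by 1.43. Of 9 genes of the p53 response, which defects in ribosome assembly can start, 2 were higher and 2 lower in the first and 2 higher and 5 lower in the second. Cdkn1a, the cell cycle inhibitor, was 207 to 297 CPM in C1HR against 78.8 to 136 CPM in its WT and rose by 1.23 ± 0.08 (edgeR adjusted p = 3.84e-13), and Phlda3 rose by 1.05 ± 0.08, whereas Trp53 fell by 0.70 ± 0.07.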

How the data were processed

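RNA of mouse cortical bone was sequenced as single 50-base reads on a BGISEQ-500. Per the series' design text, the authors mapped reads with STAR to mm9 and counted them per Ensembl gene with HTSeq 0.6.0. The deposited values are whole-number counts per gene and 5 tallies of unassigned alignments. The design text calls them CPM, but their sums differ between libraries and they were treated as counts. Per the submitters' processing notes edgeR was used as well. The deposited files are marked as not stranded, so reads shared by overlapping genes (26 members overlap another gene's exon) went to the ambiguous tally, which held 1.14% to 2.09% of alignments. HTSeq tallies each alignment of a read that maps to several places, so the non-unique share counts alignments, not reads.

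Gene names came from GENCODE vM1 (NCBIM37), which matched 37168 of 37583 rows. Each mutant was compared with its own WT by edgeR 4.0.16's quasi-likelihood test (R 4.3.3) on counts, with filterByExpr (minimum count 10, minimum total 15), TMM scaling and Benjamini-Hochberg adjustment over all genes tested. A gene was called at an adjusted p under 0.05. Fold changes are the log2 values given by edgeR's fit, and SEs were derived from the fold change and its F statistic. A prior count of 2 was used only for the log levels behind the correlations of libraries with the same number. The unassigned tallies were left out of library sizes. The procedure was tested on simulated data. Windows and levels per kilobase used the longest annotated protein-coding transcript. For Rpl24, whose longest transcript belongs to the neighbouring Zbtb11, windows came from the first-named transcript and no level per kilobase was set, a choice made after seeing the data.

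The members, the lists and the named genes were chosen with earlier results of these data known. Named were the listed well-known members, all paralogs, the 5 highest and 5 lowest fold changes of each comparison, the 3 differences of each sign with the smallest p, and for each pathway list the genes with the smallest p. Others (Rpl4, the 13 called members and those in the account of single libraries) were chosen after their values were seen. Rpl41 has no row here, and results of some genes are not reported here. Alternatives were RLE size factors, library sizes from gene counts or all alignments without scaling, upper-quartile scaling, no filter, DESeq2 1.42.0, leaving out WT 5 and 6 with C1HR 8 and 9, a replicate block, and, added after seeing the data, leaving out the library of each group with the most non-unique alignments.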

Additional observations from a re-analysis of the deposited data

Results flagged for a closer look

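Of 80 groups of 8 libraries checked, 30 held a library far from the rest. The rule flags about 1 in 20 where values are normally distributed. Here it was run on CPM, not log levels, and on genes partly named for large fold changes. The 30 therefore cannot be set against that rate. Of the 30, 13 were at WT 5 of the Sik2/3 experiment and 12 at DKO 1, the libraries with the most non-unique alignments of their groups. The flags are not independent, since they share libraries.

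DKO 1 stood far above the other libraries labelled DKO in the summed level (9155.7 CPM) and in Rpl13a (563 CPM), Rpl22 (157 CPM), Rpl5 (11.5 CPM), Rpl8 (698 CPM) and Rpl9 (8.97 CPM). The same held for Rplp0 (623 CPM), Rplp1 (454 CPM), Rplp2 (163 CPM), Rps19 (52.5 CPM), Rps26 (356 CPM) and Rps27a (9.8 CPM). In this group DKO 7 stood apart in Rpl39l (11.7 CPM) and DKO 2 in Rps27 (1.09 CPM).

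WT 5 of the Sik2/3 experiment stood above its group in the summed level (12264 CPM) and in Rpl22 (285 CPM), Rpl22l1 (24.6 CPM), Rpl39 (32.4 CPM), Rps14 (636 CPM), Rps18 (51.3 CPM) and Rps19 (78.1 CPM). It did so too in Rps27 (1.03 CPM), Rps27a (12.998 CPM), Rps27l (45.6 CPM), Rps3 (978 CPM), Rps4x (131 CPM) and Rpsa (5.6 CPM). WT 6 was lowest in Rpl39l (8.27 CPM) and Rplp0 (450.0 CPM) and highest in Rpl3l (104 CPM), and it had the highest skeletal muscle sum of its group. The part of mapping and of other cell types in these values was not tested.

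The effect in C1HR less that in the libraries labelled DKO passed the test for 19 named genes, on the log2 scale. It was positive for Rpl10a (0.784), Rpl22l1 (0.79), Rpl27a (0.544), Rpl39l (3.34), Rps18 (0.507) and Rps4y2 (2.63). It was negative for Rpl23a (-0.831), the row joining Rpl24 and Zbtb11 (-1.01), Rpl29 (-0.703), Rpl8 (-0.569), Rpl9 (-0.647), Rplp2 (-0.528) and Rps13 (-0.551). The remaining negative values were those of Rps26 (-0.604), Rps27a (-0.832), Rps29 (-1.27), Rps4x (-0.397), Rps6 (-0.539) and Rpsa (-0.938). Experiment and genotype cannot be told apart in these differences.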

How the results depend on the processing

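In the libraries labelled DKO the reported 13 lower and 0 higher members became 6 and 1 with RLE size factors, 2 and 3 with unscaled gene counts, 5 and 3 with all alignments as the library size, and 7 and 1 with DESeq2. Without a filter 8 were lower. Without WT 5 and 6 there were 2 higher. Without DKO 1 and WT 5 there were 23 lower and 1 higher, and 12 of the 13 called before were among them. In C1HR unscaled gene counts gave 66 lower and 2 higher members, and for the difference between effects 48 lower and 2 higher. The C1HR log2 ratio of summed levels was then -0.68. Under that setting 8 named genes changed sign in C1HR: Rpl10 was -0.34, Rpl13a -0.33, Rpl22l1 -0.16, Rpl27a -0.034, Rpl3l -0.32, Rpl5 -0.31, Rps14 -0.26 and Rps18 -0.091. In the libraries labelled DKO 10 uncalled values turned positive: Rpl10 was 0.038, Rpl11 0.11, Rpl23a 0.019, Rpl5 0.105, Rpl7l1 0.088, Rpl8 0.116, Rplp2 0.201, Rps26 0.123, Rps29 0.12 and Rps6 0.134. That setting also moved the median of all genes in C1HR from 0.05 to -0.35. In every other setting both log2 ratios of sums kept their direction.

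The other changes of sign were all in values that were not called. With all alignments as the library size they were, in the libraries labelled DKO, Rpl11 at 0.041, Rpl5 at 0.035, Rpl7l1 at 0.018, Rpl8 at 0.045, Rplp2 at 0.133, Rps26 at 0.063, Rps29 at 0.071 and Rps6 at 0.048, and in C1HR Rpl38 at 0.0198. Upper-quartile scaling gave Rpl38 0.016. Without WT 5 and 6, Rpl3l was 0.177, Rplp2 0.011 and Rps29 0.0067, and without C1HR 8 and 9, Rpl10 was -0.072, Rpl3l -0.00063 and Rpl5 -0.078. Rplp2 was 0.0503 with RLE size factors and 0.055 with DESeq2. In C1HR, Rpl13a was -0.023 with RLE size factors, -0.035 with DESeq2, -0.093 with the replicate block and -0.124 without C1HR 11 and WT 1. Rps14 was -0.0093 with the block and -0.031 without those libraries. The cause was not tested.

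Deviations of libraries with the same number correlated weakly or not at all (-0.26 to 0.31 and -0.18 to 0.34). WT 7 of the Sik2/3 experiment and WT 3, 6 and 10 of the C1HR experiment correlated most with the mutant library of their own number. Weak correlations cannot settle whether the numbers pair the libraries. With the replicate number as a block, 15 members were lower and 1 higher in the libraries labelled DKO, and 40 lower and 5 higher in C1HR. Members counted under about 5 CPM, 16 to 25 by group, rest on few reads. Levels of members with many repeated windows are not comparable with one another.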
